A study of Mus musculus with 72 samples.

Results

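The wild-type (WT) libraries of the iXist-ChrX-Dom line were compared with those of the iXist-ChrX-Cast line at days 2, 3, 5 and 7 of Xist induction and neural differentiation. Members were every WT library labelled with one of these days, 8 of the Dom line and 11 of the Cast line, so that 19 of the 72 libraries of the series entered. The Dom line had 2 replicates on each day, and the Cast line had 2 at day 2 and 3 on each of days 3, 5 and 7. Chromatin-associated RNA sequencing (ChrRNA-seq) was performed on female mouse embryonic stem cells (mESCs) and on the cells differentiated from them, and the series as a whole compares WT with SmcHD1 knockout cells.

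Both lines descend from the same F1 hybrid XX mESCs, a cross of 129S, of Mus musculus domesticus (Dom) origin, with Mus musculus castaneus (Cast). The endogenous Xist promoter was replaced by a TetOn promoter on the 129S X chromosome in the Dom line and on the Cast X chromosome in the Cast line. Cells of both lines received 1 μg/mL doxycycline throughout and were grown in N2B27 medium without feeder cells, towards neural precursor cells (NPCs). The study also reports a recombination event in the Dom line, whose X is not informative for alleles over its whole length. Each line is 1 clone. Line, clone and the parental origin of the inactive X therefore cannot be told apart in any value below, and nothing in the labels states that replicates came from separate cultures, so that p-values measure only the spread between these libraries. By the study's legends the Dom replicates were repeat time courses, and the 4 libraries of each Dom replicate went together in the Cast share of chromosome 11, at 0.471 to 0.473 in replicate 1 and 0.506 to 0.513 in replicate 2. Tests that take the libraries of different days as independent, the permutations within days among them, therefore give p-values that are too small where libraries of one course vary together.

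Xist is a long noncoding RNA that coats the X chromosome from which it is transcribed and recruits factors, among them SPEN and Polycomb complexes, that silence its genes. In a hybrid cell, base differences between the parental genomes show which chromosome an RNA fragment came from, so that the inactive X (Xi) and the active X (Xa) can be read apart. A line with Xi of Dom origin and a line with Xi of Cast origin read the same genes with the alleles exchanged. Naive pluripotency genes such as Nanog, Klf2 and Zfp42 are switched off as mESCs leave the embryonic state, while genes of the neural lineage are switched on.

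Libraries held 18357510 to 31107643 fragments over 22556 genes, and 46.32 to 48.66% of the fragments carried an allele. Dom libraries ranged from 18357510 to 27685127 fragments and Cast libraries from 20742617 to 31107643. No 2 replicates agreed within sampling noise, the chi-square statistic per degree of freedom over genes being 25.4 to 87.4. Levels are given as RPM, the fragments of a gene scaled to the library total, and fold changes come from edgeR's quasi-likelihood test on total fragments with TMM scaling, with p-values adjusted by the Benjamini-Hochberg method over all genes tested. The replicates of the Dom line stood apart from each other in several values, so results that rest on them are given for replicate 1 and replicate 2 separately. Within a bulk library, fewer cells of a type and less RNA per cell cannot be told apart.

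The lines differed in the RNA of 4088 of 15954 genes tested (25.6%), of which 1950 (12.2%) were higher and 2138 (13.4%) lower in the Dom line. With scaling by library totals the split was 2985 higher (18.7%) against 1351 lower (8.47%), and the median log2 fold change of all genes moved from -0.00079 to 0.10, so that small differences of one direction depend on the scaling. Without the 4 Dom libraries of replicate 1, 3068 genes passed (18.7%, with 9.85% higher and 8.89% lower), and without those of replicate 2, 2468 (15.2%, with 7.41% higher and 7.82% lower). The 8 libraries with file names of 1 naming style, 1 per line and day, gave 3743 (23.1%, with 11.6% higher and 11.5% lower). The Dom libraries of this style are those of replicate 2, so this setting also leaves out Dom replicate 1 and is not a separate check. In 1008 genes (6.32%) the lines did not overlap on any of the 4 days, with Dom libraries above in 740 (4.64%) and below in 268 (1.68%). Overlap was read in RPM, and thus with scaling by library totals, where more genes were higher than lower in the Dom line. The split of 740 against 268 therefore holds for that scaling alone.

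A large share of the differences lay on 2 chromosomes. On chromosome 8, 528 of 841 genes were higher in the Dom line and 7 were lower (63.6% called), with a median log2 fold change of 0.46 and 90.1% of genes above 0. On chromosome 5, 564 of 1009 genes were lower in the Dom line and 13 were higher (57.2% called), with a median of -0.41. The other 17 autosomes had 15.3 to 28.2% of genes called and medians of -0.063 to 0.12, the highest on chromosome 11. Of 581 X-linked genes, 52 were higher and 133 lower in the Dom line (31.8% called, median -0.12).

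The allele-assigned fragments showed on which parental copy these differences lay. Of 11178 autosomal genes with at least 10 allelic fragments in every library, the Cast-assigned RNA differed in 3341 (29.9%, with 13.8% higher and 16.1% lower in the Dom line) and the Dom-assigned RNA in 1751 (15.7%, with 7.31% higher and 8.36% lower). On chromosome 5, Cast-assigned RNA was lower in the Dom line in 724 of 784 genes and higher in none (median -0.87), whereas Dom-assigned RNA had a median of 0.17, with 158 genes higher and 30 lower. On chromosome 8, Cast-assigned RNA was higher in the Dom line in 571 of 625 genes and lower in none (median 0.86), and Dom-assigned RNA had a median of -0.05 with 22 higher and 62 lower. On the other 17 autosomes the medians of Cast-assigned RNA lay between -0.12 and 0.13 and those of Dom-assigned RNA between -0.097 and 0.061. Both chromosomes thus differed between the lines mainly in the RNA of their Cast copy, in opposite directions.

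**Figure D1:**
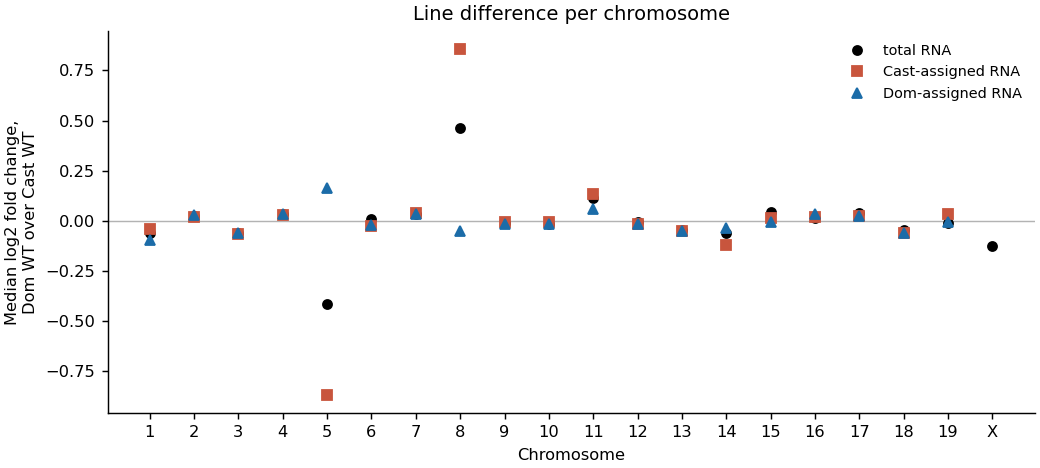
Median log2 fold change (Dom WT over Cast WT, edgeR) over the genes of each chromosome, for total RNA (circles), Cast-assigned RNA (squares) and Dom-assigned RNA (triangles); the X has total RNA only. Chromosome 5 lies at -0.41 in total RNA and -0.87 in Cast-assigned RNA, chromosome 8 at 0.46 and 0.86, and the medians of the other autosomes lie between -0.12 and 0.13.

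The Cast share of allelic fragments gave the same picture per library. For chromosome 5 the share was lowest 0.459, median 0.466 and highest 0.475 in the 8 Dom libraries, and 0.637, 0.644 and 0.660 in the 11 Cast libraries. For chromosome 8 it was 0.643, 0.645 and 0.646 in Dom libraries and 0.477, 0.486 and 0.493 in Cast libraries. Neither pair of ranges overlapped, and each line was near an equal share on one of the chromosomes and near 0.65 on the other. Exact permutation of the line labels within days (6000 arrangements, two-sided, smallest p 0.000167) gave a difference of -0.179 for chromosome 5 and 0.158 for chromosome 8, each with an adjusted p of 0.00106 over the 19 autosomes.

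The shares were stable along the course. On chromosome 5 the Cast line had 0.640 ± 0.0046 (SD, n = 2) on day 2 and 0.650 ± 0.0084 (SD, n = 3) on day 7. The Dom line had 0.464 ± 0.0071 on day 2 and 0.469 ± 0.0088 on day 7 (SD, both with n = 2). On chromosome 8 the Dom line had 0.645 ± 0.00031 and 0.644 ± 0.00049 on the same days. In 2 more autosomes smaller differences passed the same exact permutation test, chromosome 14 with -0.016 (0.474 to 0.485 in Dom and 0.487 to 0.506 in Cast libraries, adjusted p = 0.00106) and chromosome 1 with 0.0063 (ranges that overlapped, adjusted p = 0.00158). Chromosome 11 differed by 0.018 (adjusted p = 0.0697, exact permutation test) and chromosome 19 by 0.0054 (adjusted p = 0.0602, exact permutation test). Chromosome 12, which carries the imprinted noncoding RNAs Meg3, Rian and Mirg, had a Cast share of 0.655 to 0.670 in all 19 libraries and differed by -0.0029 between the lines (adjusted p = 0.515, exact permutation test).

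**Figure D2:**
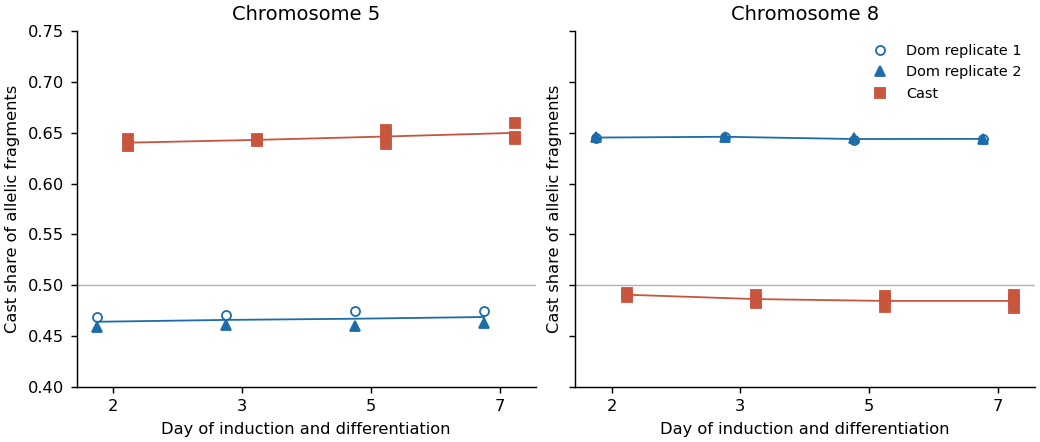
Cast share of the allelic fragments of chromosomes 5 and 8 in each library by day (circles and triangles, Dom replicates 1 and 2; squares, Cast; lines join the means of a line; the grey line marks 0.5). Dom libraries lie at 0.459 to 0.475 on chromosome 5 and 0.643 to 0.646 on chromosome 8, and Cast libraries at 0.637 to 0.660 and 0.477 to 0.493.

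The differences ran along the whole of both chromosomes. Autosomes were divided into 254 bins of 10 Mb, of which 252 held at least 5 genes with allelic depth. The line means differed by more than 0.1 in 29 of these, all 16 bins of chromosome 5 and all 13 of chromosome 8. Over the bins of chromosome 5 the line means ranged from 0.390 to 0.550 (Dom) and 0.624 to 0.710 (Cast). Over those of chromosome 8 they ranged from 0.622 to 0.683 (Dom) and 0.455 to 0.525 (Cast). No other bin differed by more than 0.095. A separate fit of the genes outside these 29 bins and the X gave 2495 of 13528 in total RNA (18.4%). Of these, 1222 were higher (9.03%) and 1273 lower (9.41%) in the Dom line. In the fit over all genes, 2791 of 13521 autosomal genes outside the 29 bins passed.

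In 6 further bins the line means differed by more than 0.04, on chromosome 6 from 120 to 140 Mb and on chromosome 11 from 90 Mb. There, and at the end of chromosome 6, the replicates of the Dom line differed from each other. On chromosome 6 from 120 to 140 Mb the Cast share was 0.479 to 0.499 in Dom replicate 1, 0.593 to 0.640 in Dom replicate 2 and 0.444 to 0.484 in Cast libraries. From 140 Mb to the end of chromosome 6 it was 0.487 to 0.505, 0.362 to 0.385 and 0.458 to 0.481. On chromosome 11 from 100 Mb it was 0.494 to 0.519, 0.568 to 0.636 and 0.466 to 0.490. The 4 libraries of Dom replicate 2 thus stood apart from all others in these 3 segments on every day, upwards in 2 and downwards in 1. Of the genes with allelic depth in them, 54 of 102, 8 of 42 and 127 of 241 passed the share test, and without Dom replicate 2 these counts were 15, 8 and 27.

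The Cast share of single genes differed in 2113 of 11178 autosomal genes (18.9%, limma on shares, Benjamini-Hochberg), being higher in the Dom line in 9.38% and lower in 9.52%. The 29 bins held 1365 of these among their 1409 genes. Outside them 748 of 9769 genes passed (7.66%), with the share higher in the Dom line in 446 (4.57%) and lower in 302 (3.09%). Of the 20 genes with the largest differences there, 10 in each direction, 9 lay on chromosome 6 from 120 Mb or on chromosome 11 from 90 Mb. These were Cdk12, Apobec1, Acrbp, Ccdc40, Mlx and Lrrc45, with differences of 0.245, 0.168, 0.163, 0.161, 0.155 and 0.151, and Ergic2, Casc1 and Itpr2, with -0.210, -0.209 and -0.182. Without Dom replicate 2, Cdk12 alone of these 9 passed (0.162), and Apobec1, Acrbp, Ccdc40, Mlx, Lrrc45, Casc1 and Itpr2 had 0.0402, 0.136, 0.0782, 0.122, 0.0613, -0.0681 and -0.0537, with limma adjusted p-values of 0.0582 to 0.527. Ankdd1b (0.289), Serpinb6c (0.203), Ano1 (0.200), Rgs6 (-0.231), Sema5b (-0.189), Tas1r1 (-0.184), Wnt5a (-0.177) and Dync1i1 (-0.175) lay elsewhere. Of these, Ano1 and Dync1i1 did not pass without Dom replicate 1 (0.147 and -0.153, limma adjusted p = 0.139 and 0.063), and Wnt5a did not pass without replicate 1 or without replicate 2 (-0.181 and -0.172, adjusted p = 0.0928 and 0.0608).

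Mllt3, a chromatin reader of the super elongation complex (mm10 chr4:87769924-88033407), had the largest fall in share. Its Cast share was 0.029, 0.045 and 0.139 (lowest, median, highest) in Dom libraries and 0.359, 0.411 and 0.467 in Cast libraries. The ranges did not overlap, and the difference was -0.347 ± 0.0099 (SE, limma adjusted p = 5.25e-13). Its Cast-assigned RNA was lower by a log2 fold change of -3.39 and its Dom-assigned RNA differed by 0.06 (adjusted p = 0.826, edgeR), with -0.62 in total RNA. Ifnar1, a subunit of the type I interferon receptor (chr16:91485214-91510522), was at 0.304, 0.332 and 0.367 in Dom libraries and 0.469, 0.526 and 0.546 in Cast libraries, again without overlap. Here Dom-assigned RNA carried the difference, with a log2 fold change of 0.95 against -0.19 for Cast-assigned RNA (adjusted p = 4e-06 and 0.114, edgeR).

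Ppp4r1l-ps, a pseudogene (chr2:173579319-173659539), had a Cast share of 0.399, 0.424 and 0.472 in Dom libraries and 0.146, 0.159 and 0.212 in Cast libraries, a difference of 0.262 ± 0.011 (SE, limma adjusted p = 9.04e-12). Reads of such a copy can be shared with its parent gene, so its value is uncertain. Cdk12, a kinase of transcription elongation (chr11:98203304-98253540), was at 0.636 to 0.698 in Dom replicate 1, 0.814 to 0.840 in Dom replicate 2 and 0.488 to 0.511 in Cast libraries. All 8 Dom libraries lay above the Cast libraries, and Cast-assigned RNA was higher by a log2 fold change of 1.70 against -0.07 for Dom-assigned RNA. Ergic2 on distal chromosome 6 was at 0.503 to 0.574 in Dom replicate 1, 0.103 to 0.160 in Dom replicate 2 and 0.508 to 0.573 in Cast libraries, so that replicate 1 overlapped the Cast line and replicate 2 did not. Its difference of -0.210 became 0.00048 without replicate 2.

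Imprinted genes, which are expressed from the copy of one parent in many tissues, were compared in their Cast share. Of 41 imprinted genes, 28 had allelic depth, and 1 passed (7.66% of all genes outside the 29 bins did). This was Meg3, with a Cast share of 0.753, 0.758 and 0.788 in Dom libraries and 0.767, 0.785 and 0.798 in Cast libraries, ranges that overlapped (difference -0.024, limma adjusted p = 0.0127). It did not pass without Dom replicate 1 (adjusted p = 0.0509) or without replicate 2 (0.159, both limma). The median difference of the 28 genes was -0.0050, against 0.00042 over all genes tested, and the largest was 0.043 in size, for Plagl1. Snrpn was far from an equal share, at 0.060 to 0.168 in Dom and 0.046 to 0.169 in Cast libraries. Peg3 and Kcnq1ot1 were near it in both lines, Peg3 at 0.469 to 0.608 in Dom and 0.444 to 0.590 in Cast libraries and Kcnq1ot1 at 0.454 to 0.466 and 0.444 to 0.479.

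Outside the 29 bins differences in total RNA were seldom opposite in the alleles, in genes chosen because the sum of both had passed. Of 9769 genes with allelic depth there, 2175 passed in total RNA in the fit over all genes. In 2147 of these the Cast-assigned and Dom-assigned differences had the same sign. Both alleles passed in the same direction in 1064 genes and in opposite directions in none, 1 allele passed in 867, and neither in 244. The share test passed in 276 of the 2175 (12.7%) and in 472 of the 7594 genes that did not pass in total RNA (6.22%).

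The 10 genes with the largest excess in the Dom line were chosen among those without overlap on each day. Of these, Pax6, a transcription factor of the neural lineage (chr2:105668895-105697364), was at 1.02, 3.09 and 8.28 RPM (lowest, median, highest) in Dom libraries and 0.264, 0.675 and 2.12 RPM in Cast libraries. Day means went from 6.51 at day 2 to 1.43 RPM at day 7 in the Dom line and from 1.59 to 0.454 RPM in the Cast line, and the log2 fold change was 1.98 ± 0.23 (SE, edgeR adjusted p = 9.53e-06). Fgf1, a fibroblast growth factor, was at 1.40, 4.85 and 15.5 RPM against 0.302, 0.912 and 3.45 RPM (log2 fold change 2.04). Hhip on chromosome 8, an inhibitor of Hedgehog ligands, was at 7.24, 15.2 and 35.1 RPM against 1.89, 4.41 and 12.5 RPM (1.55), with 1.97 for Cast-assigned and 0.96 for Dom-assigned RNA. The ranges over all days overlapped for these 3 genes because levels differed between days.

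Sytl5 on the X, a vesicle trafficking protein, was at 7.17, 11.8 and 15.9 RPM in Dom libraries and 0.530, 2.66 and 5.87 RPM in Cast libraries, the largest log2 fold change of these genes (2.13 ± 0.27 SE). The remaining 6 were Frmd7, Ttll6, Pla2g4e, Wdr17, Gm13939 and 4930519F16Rik, with log2 fold changes of 1.98, 1.83, 1.72, 1.57, 1.49 and 1.49. X-linked genes made up 3 of the 10 and chromosome 8 another 2.

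Of the 10 genes with the largest deficit in the Dom line, 5 were X-linked and 2 lay on chromosome 5. Aqp8, a water channel, was at 0.000, 0.121 and 0.957 RPM in Dom libraries and 0.378, 1.51 and 7.04 RPM in Cast libraries (log2 fold change -3.51 ± 0.61 SE), a level near the detection limit in the Dom line. Arhgap6 on the X, a GTPase activating protein, was at 32.9, 154 and 542 RPM against 239, 598 and 1884 RPM (-2.07 ± 0.37 SE). Mageb16 on the X was at 0.80, 3.50 and 9.71 RPM against 7.14, 13.6 and 26.1 RPM (-2.27). These genes, too, were chosen among those without overlap on each day.

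Fgfr3, a fibroblast growth factor receptor on chromosome 5, was at 0.839, 2.61 and 6.40 RPM in Dom libraries and 3.12, 8.15 and 25.1 RPM in Cast libraries (-1.80). Anxa3 on the same chromosome, an annexin, was at 6.48, 21.1 and 85.4 RPM against 14.1, 145 and 174 RPM (-1.70), with -2.35 for Cast-assigned and -1.13 for Dom-assigned RNA. Both alleles of Anxa3 were thus lower in the Dom line, the Cast allele more so. The other 5 were Bace2, Gabre, 3110007F17Rik, C4bp-ps1 and Bcorl1, with log2 fold changes of -2.27, -1.95, -1.80, -1.74 and -1.64.

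Among the marker lists, endoderm genes were lower in the Dom line. Every gene list here was chosen with earlier results of these data known. Counts of a list beside the shares of all genes thus describe the list and are not a test. All 9 endoderm genes tested of a list of 10 were lower in the Dom line (25.6% of all genes were called, 13.4% as lower), with a median log2 fold change of -1.57 against -0.00079 over all genes. The transcription factors Gata4, Gata6, Sox17, Sox7 and Foxa2 had -1.52, -1.83, -1.57, -2.00 and -1.36, the endocytic proteins Dab2 and Amn -1.51 and -2.06, the receptor Pdgfra on chromosome 5 -2.21, and the basement membrane component Lama1 -1.57. Afp did not pass the filter on low counts. Gata4 was at 4.12, 12.0 and 35.5 RPM in Dom libraries and 19.02, 27.3 and 99.8 RPM in Cast libraries, and Lama1 at 83.2, 218 and 1639 RPM against 244, 1033 and 3534 RPM.

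The Dom replicates contributed unequally to this. The 10 genes summed to 117 to 233 RPM in the 4 libraries of Dom replicate 1, 344 to 1808 RPM in those of Dom replicate 2, and 386 to 4067 RPM (median 1356) in Cast libraries. Replicate 1 lay below all Cast libraries, whereas replicate 2 overlapped them. Without replicate 2, 8 of the 9 genes were called lower, without replicate 1, 2 were (Dab2 and Pdgfra), and in the 8 libraries of 1 naming style, 9. That style sets Dom replicate 2 against the Cast library with the highest sum of each day. On days 2 and 3 alone 7 passed and on days 5 and 7 alone 1, and with library totals 8. The part of endoderm cells in the other differences between the lines was not tested.

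Naive pluripotency genes were higher in the Dom line in 9 of 17 cases and lower in 1 (12.2% of all genes were higher), with a median log2 fold change of 0.51. Zfp42, a marker of naive mESCs on chromosome 8, was at 21.6, 159 and 365 RPM in Dom libraries and 19.1, 43.3 and 141 RPM in Cast libraries (1.13 ± 0.17 SE, edgeR adjusted p = 0.000137). Esrrb, a nuclear receptor of the naive network, was at 39.7, 163 and 294 RPM against 39.4, 74.9 and 141 RPM (0.86). Klf2 (1.38, also on chromosome 8), Dppa3 (1.04), Prdm14 (0.97), Nr0b1 on the X (0.84), Nanog (0.65), Fgf4 (0.60) and Tet2 (0.51) were higher as well, while Sox15 was lower (-0.59). Klf4, Klf5, Tbx3, Tfcp2l1, Dppa5a, Tcl1 and Manba did not pass, with log2 fold changes between -0.38 and 0.31.

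The list summed to 1088 and 1128 RPM in the Dom libraries of day 2 against 530 and 533 RPM in the Cast libraries, a gap without overlap. At day 7 Dom replicates 1 and 2 had 220 and 555 RPM, below and above the 265 to 362 RPM of Cast libraries. On days 2 and 3 alone 11 of 17 genes were higher, and on days 5 and 7 alone none was and 1 was lower. Without Dom replicate 1, 9 were higher, and without replicate 2, 2 were (Klf2 and Zfp42) and Klf5 was lower. Of the 9 genes that were higher, Klf2 and Zfp42 lie on chromosome 8.

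**Figure D3:**
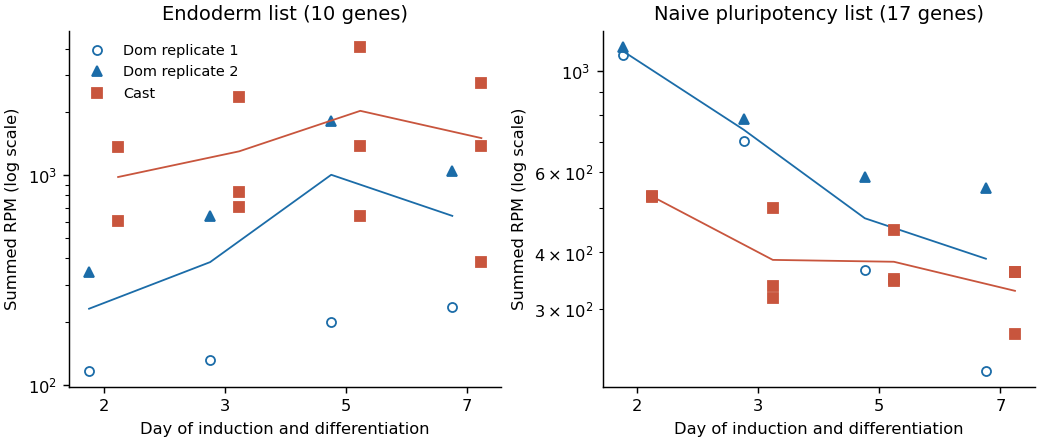
Summed RPM (log scale) of the endoderm list (10 genes) and of the naive pluripotency list (17 genes) in each library by day; circles and triangles are Dom replicates 1 and 2, squares are Cast libraries, and lines join the means of each line. Dom replicate 1 lies at 117 to 233 RPM for endoderm, below every Cast library, and both Dom libraries of day 2 lie above the Cast libraries for the naive list.

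Core pluripotency genes were higher in 5 of 11 cases and lower in none (median 0.40, where 12.2% of all genes were higher), namely Dppa2 (0.83), Dppa4 (0.68), L1td1 (0.63), Utf1 (0.57) and the central regulator Pou5f1 (0.45). Pou5f1 was at 29.1, 64.3 and 82.3 RPM in Dom libraries and 16.8, 36.3 and 82.5 RPM in Cast libraries. Sox2, a core factor, was listed at 0 in all 19 libraries. Whether this came from the counting or from absent RNA was not tested. In the libraries of 1 naming style 1 core gene was higher and 1 lower. Of the 10 genes of primed pluripotency, Fgf5 on chromosome 5 was lower (-0.95, from -1.38 in Cast-assigned and -0.31 in Dom-assigned RNA), the other 9 did not pass, and the median was 0.02.

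Neural precursor genes were called about as often as all genes, of which 25.6% were called. In 4 of 22 they were higher in the Dom line and in 1 lower (median 0.31). Beside Pax6 these were Gbx2 (1.53), Ncam1 (0.96) and Zic2 (0.41), and the Notch target Hes1 was lower (-0.79). Ncam1, a neural cell adhesion molecule, was at 158, 246 and 384 RPM against 73.9, 110 and 218 RPM, Dom libraries being above on 3 of 4 days without overlap. Nes and Vim, intermediate filament genes of precursors, had log2 fold changes of -0.04 and 0.21 (adjusted p = 0.925 and 0.519, edgeR). Sox1, a defining marker of neural precursors, was listed at 0 in all libraries, and the part of the counting in this was not tested either. Without Dom replicate 1, 2 of the 21 genes then tested were higher and none lower, without replicate 2, 7 were higher and 1 lower, and in the libraries of 1 naming style 1 was higher and 3 lower. Neuronal genes were higher in 4 of 10 cases and lower in none (median 0.49, where 12.2% of all genes were higher), with Tubb3 on chromosome 8 at 1.14, Elavl4 at 0.72, Stmn2 at 0.49 and Neurod1 at 0.48. Without Dom replicate 2, 2 were higher, and in the libraries of 1 naming style, as on days 2 and 3 alone, 3 were higher and 1 lower. Elavl4, an RNA-binding protein of neurons, was at 37.8, 48.8 and 58.3 RPM in Dom libraries and 22.3, 25.96 and 32.95 RPM in Cast libraries, with no overlap over the whole course and similar differences in Cast-assigned and Dom-assigned RNA (0.73 and 0.64).

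Genes of other cell types were read against the same shares of all genes, 12.2% higher and 13.4% lower. Of 7 trophoblast genes 4 were lower in the Dom line, the keratins Krt8 (-0.96) and Krt18 (-1.03) and the transcription factors Gata3 (-0.84) and Ascl2 (-1.11), and none was higher. Of 9 fibroblast genes, which also mark feeder cells, Col1a2 (-1.07), Dcn (-0.86) and Postn (-2.37) were lower, Postn with medians of 0.095 and 0.094 RPM and its highest values at 2.15 RPM in Dom and 16.7 RPM in Cast libraries. Without Dom replicate 2, 1 trophoblast gene was higher and 2 lower, in 1 naming style 1 and 1, and with library totals 1 and 3. Without Dom replicate 1 none of the trophoblast genes passed and 2 of the fibroblast genes did, and without replicate 2 none of the fibroblast genes passed. The 5 mesoderm genes tested did not pass (median -0.01). Of 6 Hox genes tested, Hoxd3 (1.72) and Hoxb9 (0.94) were higher, and Hoxd3 reached 13.5 RPM in a single Dom library against a median of 0.508 RPM. Without Dom replicate 1 no Hox gene passed, and without replicate 2, 4 were higher.

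The factors that act with Xist were tested in full, 27 of 27, with 2 higher and 7 lower in the Dom line and a median of -0.03, against 25.6% of all genes called. Without Dom replicate 2, 1 was higher and 3 were lower. Of the 7 that were lower, 3 lie on chromosome 5, among them Ythdc1 and Pcgf3. Ythdc1, a reader of N6-methyladenosine on RNA, was at 272, 308 and 360 RPM in Dom libraries and 389, 474 and 548 RPM in Cast libraries, without overlap (-0.71 ± 0.088 SE, edgeR adjusted p = 2.15e-05). Pcgf3, a subunit of the Polycomb complex that Xist recruits first, was at 91.1, 100.0 and 111 RPM against 108, 129 and 137 RPM (-0.41). In Cast-assigned RNA Ythdc1 and Pcgf3 had -1.10 and -0.81, and in Dom-assigned RNA -0.13 and 0.17. Both Cast-assigned differences passed and neither of the Dom-assigned ones did, as for most genes of chromosome 5.

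The other members that were lower were Pcgf5 (-0.55), Yaf2 (-0.43), Smchd1 (-0.20) and Zc3h13 (-0.17), and those that were higher were Wtap (0.27) and H2afy (0.33). Smchd1, the factor deleted in the knockout clones of the series, was at 516, 566 and 628 RPM in Dom libraries and 522, 615 and 709 RPM in Cast libraries, ranges that overlapped, and with library totals it did not pass (-0.10, edgeR adjusted p = 0.153). Spen had a log2 fold change of 0.13 (adjusted p = 0.291), Hnrnpk -0.20 (0.177) and Lbr -0.01 (0.892, all edgeR). With library totals the list had 7 higher and 4 lower, and Smchd1 and Zc3h13 were not among the latter. Of 8 genes of DNA methylation, Uhrf1 (0.42), Tet1 (0.37) and Tet2 (0.51) were higher and none was lower, against 12.2% of all genes higher, and without Dom replicate 2, 1 was higher.

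For the lists that follow, 25.6% of all genes were called, 12.2% as higher and 13.4% as lower. Of 11 targets of FGF-ERK signalling, Etv5 (0.74) and Dusp4 on chromosome 8 (0.45) were higher, and Fos (-1.41) and Spry1 (-0.58) lower. These counts were 1 and 1 without Dom replicate 1, 0 and 2 without replicate 2, 1 and 4 in 1 naming style and 4 and 2 with library totals. Of 11 genes of stress and p53, Atf3 (-0.78), Jun (-0.87) and Ddit3 (-0.38) were lower and none was higher, a share near that of all genes. Leaving out Dom replicate 1 or Dom replicate 2 left 1 lower, and with library totals 1 was higher and 2 were lower. Of 37 imprinted genes 3 were higher, Grb10 (0.79), Zdbf2 (0.24) and Nespas (0.22), and 9 were lower, Peg3 (-0.82) without overlap on any day and Airn (-0.77) among them, while library totals gave 6 higher and 4 lower. Without Dom replicate 1, 2 imprinted genes were higher and 4 lower, and without replicate 2, none was higher and 2 were lower. Peg3, a paternally expressed zinc finger gene, was at 136, 226 and 820 RPM in Dom libraries and 230, 373 and 1382 RPM in Cast libraries.

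The level of Xist itself (chrX:103460372-103483233) was lower in the Dom line. At day 2 the Dom libraries had 5048 and 5588 RPM and the Cast libraries had 6423 and 6574 RPM. At day 5 Dom libraries had 10985 and 13911 RPM and Cast libraries 15676, 20840 and 25157 RPM, and at day 7 they had 15161 and 16636 RPM against 26443, 30441 and 35184 RPM. The lines did not overlap on days 2, 5 and 7. At day 3 the Dom libraries, at 8274 ± 885 RPM (SD, n = 2), overlapped the Cast libraries at 11250 ± 2955 RPM (SD, n = 3). The mean log2 difference over days was -0.59 (exact two-sided permutation within days, p = 0.0005). On days 2 and 3 alone it was -0.35 (exact p = 0.05) and on days 5 and 7 alone -0.82 (exact p = 0.01).

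Xist fragments came nearly all from the Xi. The Xi share of allelic Xist fragments was 0.9985 to 0.9994 in Dom libraries and 0.952 to 0.971 in Cast libraries. Around Xist, 5 of 9 genes tested of the X inactivation centre were lower in the Dom line (13.4% of all genes were), among them Xist itself, the noncoding RNAs Ftx (-0.52) and Jpx (-0.47), and Rlim (-0.37), which encodes an E3 ligase. Nap1l2 was higher (1.19), at 1.35, 4.63 and 12.5 RPM against 1.01, 1.79 and 4.15 RPM. Tsix, antisense to Xist, had -0.61 (edgeR adjusted p = 0.103).

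**Figure D4:**
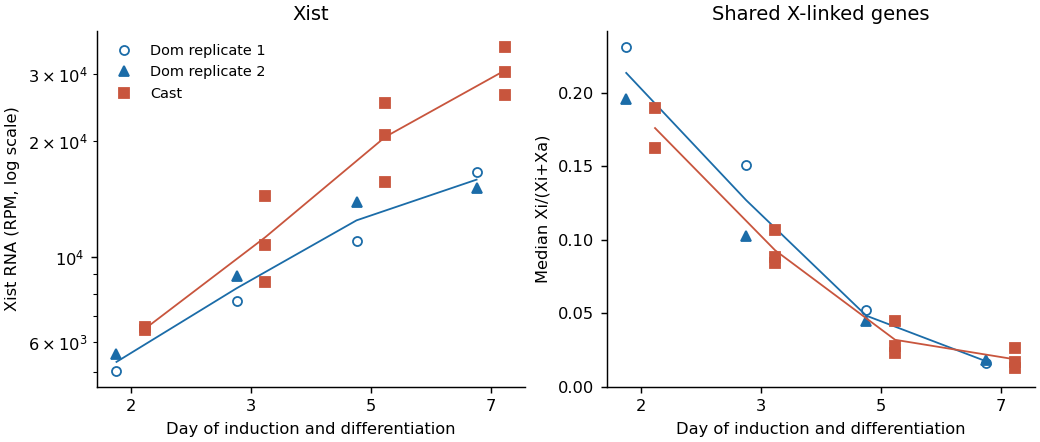
Xist level (RPM, log scale) and the median Xi/(Xi+Xa) over 235 X-linked genes in each library by day; circles and triangles are Dom replicates 1 and 2, squares are Cast libraries, and lines join the means of each line. Xist is lower in both Dom libraries than in every Cast library on days 2, 5 and 7. The median ratios of the lines overlap on days 3, 5 and 7, with means of 0.048 (Dom) and 0.032 (Cast) on day 5.

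Silencing was read as Xi/(Xi+Xa), which is 0.5 with equal expression and 0 with complete silencing. It was compared over the 235 X-linked genes listed in both deposited ratio tables. The last gene listed for the Dom line started at 103.356 Mb, so the X beyond it was not compared. The median ratio of the 235 genes was 0.231 and 0.196 in the Dom libraries of day 2 and 0.162 and 0.190 in the Cast libraries. At day 7 it was 0.0160 and 0.0185 in Dom libraries and 0.0126, 0.0172 and 0.0261 in Cast libraries, which lay on both sides. Averaged over the days the Dom line was higher by 0.022 (exact two-sided permutation within days, p = 0.0107). The call was lost without Dom replicate 1 (0.011, exact p = 0.156) and within 1 naming style (0.0043, exact p = 0.75, in a design of 16 arrangements that cannot reach 0.05). Taken as pooled fragments instead of a median over genes, the difference was 0.012 (exact p = 0.184).

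Single genes differed far more than the medians. The ratio differed between the lines in 97 of 235 genes (41.3%, limma, Benjamini-Hochberg), being higher in the Dom line in 70 (29.8%) and lower in 27 (11.5%). Over all 235 genes 162 had a positive difference and the median difference was 0.013. Without Dom replicate 1, 61 genes passed, without replicate 2, 90, and in the 8 libraries of 1 naming style 17 (7.23%), 9 higher (3.83%) and 8 lower (3.4%). By position, 19 of 66 genes below 35 Mb, 20 of 54 from 35 to 65 Mb, 19 of 68 from 65 to 94 Mb and 12 of 47 from 94 Mb on had a higher ratio in the Dom line, and 8, 4, 6 and 9 had a lower one.

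Atp6ap1, an accessory subunit of the vacuolar proton pump (chrX:74297096-74304721), had the largest difference. Its ratio was 0.000, 0.0091 and 0.096 (lowest, median, highest) in Dom libraries and 0.579, 0.738 and 0.778 in Cast libraries. The Cast-assigned share thus stayed over 0.5 in every Cast library, whereas the Dom-assigned share was at or below 0.096 in every Dom library (difference -0.680 ± 0.023 SE, limma adjusted p = 1.93e-14). The study's methods leave out genes that are strongly monoallelic in uninduced cells, as likely artifacts of wrongly annotated base differences. Atp6ap1 was among the genes that the study kept for both lines. The part of such errors in this ratio, or in those of the genes below, was not tested. In uninduced knockout clones, in which both X chromosomes are active, the Dom share was 0.243 in clone A3 of the Dom line and the Cast share 0.797 in clones D5 and G6 of the Cast line. This gene was thus biased towards the Cast allele in uninduced clones of both lines.

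Las1l, a ribosome biogenesis factor, was at 0.0034, 0.046 and 0.179 in Dom libraries and 0.265, 0.341 and 0.483 in Cast libraries (difference -0.303 ± 0.016 SE). At day 7 it was at 0.0036 in the Dom line and 0.309 in the Cast line, without overlap on any day. Its uninduced Dom share was 0.350 and its uninduced Cast share 0.601. Klhl13, a ubiquitin ligase adaptor, differed by -0.178, Taf1, a TFIID subunit, by -0.142, and Eif2s3x, a translation initiation factor known to escape silencing, by -0.123. Eif2s3x was at 0.138, 0.246 and 0.323 against 0.257, 0.340 and 0.479.

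On the other side stood Efhc2 with a difference of 0.302 and Rbmx2, an RNA-binding protein, with 0.258. Efhc2 had day means of 0.659, 0.502, 0.177 and 0.060 in the Dom line at days 2, 3, 5 and 7 and never exceeded 0.067 in a Cast library, and its uninduced Dom share was 0.768 and Cast share 0.115. Nono, a paraspeckle protein (chrX:101429650-101448593), was at 0.203, 0.255 and 0.318 in Dom libraries and 0.011, 0.036 and 0.15 in Cast libraries (0.203 ± 0.012 SE, limma adjusted p = 9.42e-11). In the Dom line it was at 0.307 at day 2 and 0.244 at day 7, while in the Cast line it went from 0.12 to 0.015. The ribosomal protein gene Rpl10 (0.211) and Zfx, a transcription factor (0.189), also stayed high in the Dom line, with day 7 means of 0.228 and 0.215 in the Dom line against 0.026 and 0.033 in the Cast line. Utp14a, a nucleolar protein that is among the escape genes, differed by 0.177, and Mamld1, Pnma5, Timp1 and Xpnpep2 by 0.158, 0.151, 0.15 and 0.143. For Mamld1, Pnma5, Timp1 and Xpnpep2 the library with the fewest allelic fragments had 19, 30, 13 and 8, so their ratios are coarse.

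At day 7, 18 of the 235 genes had a mean ratio of at least 0.1 in the Dom line and 11 in the Cast line, 6 of them in both. The 6 were Kdm6a, Wdr44, Slc25a5, Pnma5, Eif2s3x and 4930519F16Rik. Slc25a5, a mitochondrial ADP/ATP carrier, was at 0.469 in the Dom line and 0.543 in the Cast line, close to equal expression in both. Kdm6a, a histone demethylase that escapes inactivation, was at 0.146 and 0.162. The 12 in the Dom line alone included Nono, Rpl10, Zfx, Rbmx2, 6330419J24Rik (0.154 against 0.0058), Xk (0.154 against 0.059) and Utp14a (0.140 against 0.072), and the 5 in the Cast line alone were Atp6ap1, Las1l, Taf1, Klhl13 and 5730405O15Rik (0.116 against 0.011). Of the other escape genes with a ratio, Ddx3x did not pass over the course (0.033, limma adjusted p = 0.0606), nor did Kdm6a (0.028, adjusted p = 0.113).

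The differences between the lines went with the allele balance of the same genes before induction. In the uninduced knockout clones the median Dom share over the 235 genes was 0.514 in A3 and the median Cast share 0.449 in D5 and G6, and 170 genes had the higher value in A3. Of the 97 genes whose ratio differed between the lines, 91 had a difference of the same sign in the uninduced clones, against 185 of all 235 genes. Pearson's r between both differences was 0.72 over 235 genes, which share their libraries and their allele assignment. After each ratio was divided by the uninduced ratio of its line, 43 genes differed (18.3%), 33 higher (14%) and 10 lower (4.26%) in the Dom line. Of these, 40 were among the 97 and 39 kept their sign.

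Atp6ap1, Las1l, Klhl13, Eif2s3x, Rbmx2, Rpl10, Nono, Zfx and Utp14a were among those that passed after this division. Efhc2 did not (limma adjusted p = 0.154), nor did Taf1 (0.493) or Pnma5 (0.567). The uninduced libraries were of SmcHD1 knockout clones, since these gave the uninduced libraries used here, and the part of the knockout in their balance was not tested.

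**Figure D5:**
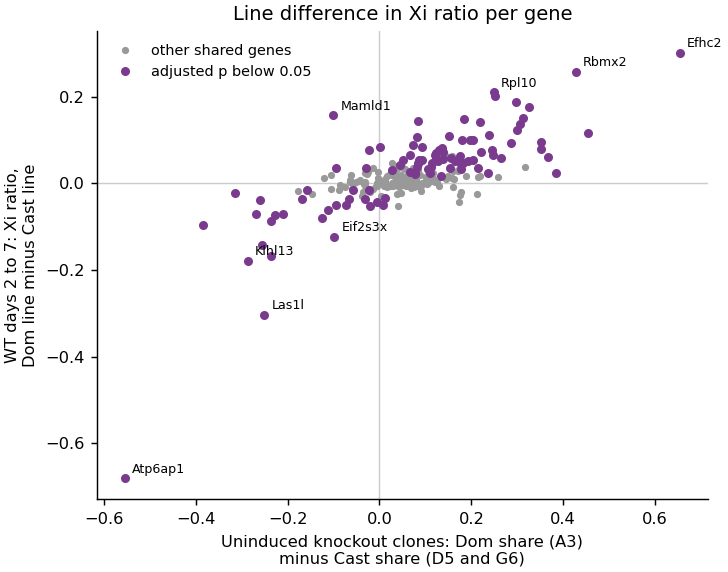
Difference in Xi/(Xi+Xa) between the lines over days 2 to 7 (limma estimate, Dom minus Cast, y axis) against the difference between the Dom share of uninduced clone A3 and the Cast share of uninduced clones D5 and G6 (x axis), 1 point for each of 235 X-linked genes. The 97 genes with an adjusted p below 0.05 are purple, and 91 of them lie in the quadrants where both differences have the same sign.

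The total RNA of X-linked genes was called more often in the direction opposite to the ratio than in the same one, and in more than 50% of the genes of either group it was not called. Of the 70 genes with a higher ratio in the Dom line, 31 were lower in total RNA and 2 higher, with a median log2 fold change of -0.27. Of the 27 with a lower ratio, 10 were higher and 1 lower, with a median of 0.26. The 235 genes together had 20 higher and 58 lower (33.2% called, median -0.12), close to the X as a whole. Efhc2 had a log2 fold change of -0.93 in total RNA, Zdhhc9 -1.22 and Rbmx2 -0.50, and on the other side 4930519F16Rik had 1.49, Lancl3 0.99, Klhl13 0.81 and Taf1 0.41, all past the threshold. Against this direction, Pnma5, with the higher ratio, was also higher in total RNA (0.73), and Las1l, with the lower ratio, also lower (-0.36). Nono (0.06), Rpl10 (0.01) and Atp6ap1 (-0.18) did not pass. Of 10 escape genes 6 were lower in total RNA and none was higher (median -0.38), against 13.4% of all genes and 133 of 581 X-linked genes lower. The 6 were Kdm6a (-0.41), Utp14a (-0.39), Pbdc1 (-0.38), Xist, Ftx and Jpx. Xist, Ftx and Jpx were already counted with the X inactivation centre, so the 2 lists are not separate results. Without Dom replicate 2, 3 escape genes were lower, and on days 5 and 7 alone, 2. X-linked genes other than Xist made up 3.43 to 4.29% of all fragments in Dom libraries and 3.83 to 4.34% in Cast libraries.

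Whether the difference between the lines changed along the course was tested for total RNA and for the X-linked ratios. Between days 2 and 3 and days 5 and 7, 57 of 15954 genes changed their log2 difference (0.357%, edgeR interaction of line with period), with 44 moving up in the Dom line relative to the Cast line (0.276%) and 13 moving down (0.0815%). Myt1l, a transcription factor of neurons, had day means of 6.69, 19.5, 17.96 and 2.96 RPM in the Dom line and 18.5, 24.0, 2.64 and 0.929 RPM in the Cast line, so that the Cast line was lower from day 5 on (change of 2.97 in the log2 difference, adjusted p = 0.0141). Gab1, an adaptor of receptor tyrosine kinases on chromosome 8, had 384, 341, 234 and 296 RPM against 98.9, 100.2, 197 and 196 RPM, and the gap between the lines narrowed (-1.52). Kitl, the ligand of the KIT receptor, and the ligand Bmp4 crossed over, Kitl from 29.5 against 13.8 RPM at day 2 to 31.7 against 59.9 RPM at day 7 (-2.17), and Bmp4 from 6.84 against 4.17 RPM to 4.20 against 8.24 RPM (-2.16). The count rested on single libraries, being 10 without Cast replicate 1 of day 2, and 2 and 3 without Dom replicates 1 and 2.

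The ratio difference changed between the periods in 34 of 235 genes (14.5%, limma), in 29 downwards (12.3%) and in 5 upwards (2.13%). Efhc2, Mamld1 and F8 had changes of -0.426, -0.274 and -0.213, and Lancl3, Ebp and Klhl13 of 0.174, 0.157 and 0.117. Lancl3 had day means of 0.090, 0.036, 0.021 and 0.012 in the Dom line and 0.371, 0.143, 0.048 and 0.011 in the Cast line. On the log2 scale of Xi over Xa 1 gene passed in place of 34.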

How the data were processed

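ChrRNA-seq counts of 19 WT libraries were analysed. The authors aligned reads to mm10 with SNPs masked, assigned fragments to alleles with SNPsplit and deposited whole-number counts of total, Cast-assigned and Dom-assigned fragments per gene; the submitters' processing notes name Bowtie2 2.3.2, STAR 2.4.2a and featureCounts 1.5.2. The deposited Xi/(Xi+Xa) tables, which hold fractions computed by the authors, gave only the gene lists (399 genes for the Cast line, 246 for the Dom line, 235 shared), and ratios were computed here from the counts. The 5586 Cast-line ratios compared differed from the counts by at most 5e-16. The Dom-line table has 26 columns with names of Cast-line libraries, which were not used.

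Total and allele-assigned counts were tested with edgeR 4.0.16 (quasi-likelihood, TMM, filterByExpr, day as a factor plus line), and shares and ratios with limma 3.58.1 (trend), at an adjusted p of 0.05. Autosomal genes needed 10 allelic fragments in each library, and the shared X-linked genes needed 1. Uninduced ratios came from SmcHD1 knockout clones A3 (2 libraries), D5 (2) and G6 (1). Named genes were the 10 with the largest difference in each direction that passed (5 for the interaction with period), for total RNA those without overlap on any day and with a mean of at least 1 RPM in the higher line, and the members of the lists. Members and lists were chosen with earlier results of these data known. On simulated data the total RNA test recovered 81% of genes changed by 0.5 on the log2 scale, the share test 57% of those changed by 0.1 and the ratio test 40% of those changed by 0.05. The simulated libraries were independent, did not change over days and had the same setting of spread for all genes. For total RNA the changed genes were above 1 RPM. Recovery in the real libraries can differ. Some list members are counted but not reported by name here.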

Additional observations from a re-analysis of the deposited data

Results flagged for a closer look

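The difference between the lines was not the same early and late for 57 genes of total RNA (interaction of line with period, edgeR, adjusted p below 0.05) and for 34 X-linked ratios (limma). For total RNA, the changes of the log2 difference between Dom WT and Cast WT from days 2 and 3 to days 5 and 7 were largest upwards in CK137956 (3.74), Myt1l (2.97), Brsk2 (2.69), Fam155a (2.62) and Slc22a3 (2.62). Downwards they were largest in Kitl (-2.17), Bmp4 (-2.16), Pld1 (-1.55), Gab1 (-1.52) and Nlrc3 (-1.49). CK137956 was at or below 0.436 RPM in every library. Fam155a, a regulator of the sodium leak channel on chromosome 8, had day means of 22.5, 67.0, 169 and 85.5 RPM in the Dom line and 46.5, 87.2, 48.3 and 17.6 RPM in the Cast line.

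For the ratio Xi/(Xi+Xa), the change of the difference was upwards in Lancl3 (0.174), Ebp (0.157), Klhl13 (0.117), Rpgr (0.0853) and Mtap7d3 (0.0763). It was most strongly downwards in Efhc2 (-0.426), Mamld1 (-0.274), F8 (-0.213), Timp1 (-0.196) and Zdhhc9 (-0.186). Mamld1 had day means of 0.401, 0.321, 0.067 and 0.0091 in the Dom line and 0.086, 0.031, 0.017 and 0.0058 in the Cast line. No group held 4 libraries, so no single library was tested for lying far from the others of its group.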

How the results depend on the processing

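The count in total RNA of 4088 genes was 2216 on days 2 and 3 alone, 2138 on days 5 and 7 alone, 2495 outside the X and the unequal bins and 2468 without Dom replicate 2, 3252 to 4059 without 1 library, and 3516 to 4641 under the other settings apart from 3068 without Dom replicate 1. Dom-assigned RNA gave 1098 and 775 genes without Dom replicates 1 and 2, and 1218 to 1804 without 1 library. The interaction with period gave 109 genes in total RNA with library totals, 2 and 3 without Dom replicates 1 and 2, and 10 to 89 without 1 library. It was moved by over 1.5 times without Dom replicate 1 of day 2, 3 or 5, Dom replicate 2 of day 2, or Cast replicate 1 of day 2, 3 or 5, 2 of day 3, 5 or 7, or 3 of day 3. For ratios it gave 1 gene on the log2 scale and 25 to 51 without 1 library. The 97 genes with different ratios were 43 over the uninduced ratio, 17 in 1 naming style, 61 without Dom replicate 1 and 78 to 97 without 1 library. The difference of 0.022 in the median ratio was 0.0118 with pooled fragments (p = 0.184), 0.0197 over the uninduced ratio (p = 0.203), 0.0107 without Dom replicate 1 (p = 0.156), 0.0043 in 1 naming style (p = 0.75) and 0.0075 on days 5 and 7 (p = 0.24), and 0.0156 to 0.0277 without 1 library (exact permutation tests). Xist was at -0.74 in 1 naming style (exact p = 0.125, the smallest that 16 arrangements give) and -0.35 on days 2 and 3 (exact p = 0.05). The 4 autosomes became 0 in 1 naming style, where no p below the threshold is possible, and 4 to 5 without 1 library. The cause of these changes was not tested. H2afy turned to -0.0325 on days 5 and 7, Ergic2 to 0.00048 without Dom replicate 2, and the period change of Klhl13 to -1.02 on the log2 scale. Over all named genes and settings, 4661 values kept direction and side of the threshold, 701 lost the call, 7 gained it and 3 reversed.

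Replicate numbers were not taken as pairing Dom with Cast libraries. Differences of replicates 1 and 2 correlated between the lines by 0.0285, 0.0728, 0.300 and 0.199 on days 2, 3, 5 and 7. This was below 0.1 on 2 of the 4 days. By naming style Dom replicate 2 went with Cast replicate 3 on days 3, 5 and 7, and pairing by style was not tested. As a hint from the data and not the design, all 8 Dom libraries deviated most like the Cast library of their own number on the same day. The deviations of the 2 Dom libraries of a day mirror each other, so these are not 8 separate outcomes. A replicate block gave 3516 genes in total RNA, 87 for its interaction with period, 1891 shares, 66 ratios and 19 ratio interactions. In this block Cast replicate 3 had no Dom library.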
